A study of Mus musculus with 8 samples.

Results

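AA388235 and B3galt4 are neighbours on mouse chromosome 17, a long noncoding RNA (lncRNA) gene and a protein-coding gene, and both gave a weaker signal in the brainstem of DBA/1 mice than in that of C57BL/6 mice. Each was measured by 1 probe, so the pair is 2 of the 60804 probes in the table of normalized values. The AA388235 probe (ASMM10P017049) was given by its name, and the B3galt4 probe (ASMM10P015949) was the probe listed under that symbol among the coding genes that the study had picked. Both probes came from the study's lists of strain differences, so their own strain differences are given as a description, with no test.

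On the arrays the study compared 4 DBA/1JNCrlj mice, a strain in which loud sound can set off seizures, with 4 C57BL/6JNifdc mice as controls. All were males killed at 5 weeks of age under isoflurane, given no treatment and not tested for seizures under sound. RNA of the whole brainstem of 1 mouse was hybridized to each Agilent 1-colour array, which carries probes for lncRNAs and coding transcripts. In RNA of a whole tissue, fewer cells of a type and less RNA per cell cannot be told apart.

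B3galt4 encodes the galactosyltransferase that builds the gangliosides GM1 and GD1b by adding galactose to GM2 and GD2. Gangliosides are lipids with sugar chains that contain sialic acid, and they are abundant in the membranes of nerve cells, where the complex forms take part in the stability of axons and myelin. LncRNAs carry no evident protein, and some of them act on genes near the place where they are transcribed. AA388235 is annotated as an lncRNA, and the study listed it as intergenic, that is, without a coding transcript that overlaps it or starts close by on the other strand.

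The probe sequences are shown because every level below is the signal of one of these oligonucleotides, 5′ to 3′ as listed by the study. Both probes are 60 bases long, the AA388235 probe is given whole, and the first 30 bases of the B3galt4 probe are given. GC made up 36.7% of the bases of the AA388235 probe and 45.0% of those of the whole B3galt4 probe. Of the 1194 listed probes, 131 carried an entry for a second transcript that they could bind, and neither of these probes did. The forward primer of the study's qRT-PCR for AA388235 lies within the sequence of the AA388235 probe. Whether the DBA/1 genome has the same bases under the probes was not tested here.
AA388235 probe: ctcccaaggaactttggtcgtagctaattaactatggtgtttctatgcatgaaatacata
B3galt4 probe, first 30 bases: ttctcacagcaaactctgaagctgcaacca

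The 250 bases before each annotated start are shown because the pair is compared as neighbours on opposite strands, each with its own promoter (RefSeq, GRCm38.p6, the C57BL/6J reference). AA388235 starts on the plus strand and its promoter lies at chr17:33981242-33981491. B3galt4 starts on the minus strand and its promoter lies at chr17:33951489-33951738. Each is written 5′ to 3′ on the strand of its gene, and capitals mark matches to CCAAT and to GGGCGG, the latter also where it reads CCGCCC on the printed strand.
AA388235 promoter: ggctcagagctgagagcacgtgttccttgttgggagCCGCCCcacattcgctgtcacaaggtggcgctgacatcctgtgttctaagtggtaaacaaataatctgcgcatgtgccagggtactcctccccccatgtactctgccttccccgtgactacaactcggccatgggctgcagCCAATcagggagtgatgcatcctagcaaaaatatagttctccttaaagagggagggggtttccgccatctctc
B3galt4 promoter: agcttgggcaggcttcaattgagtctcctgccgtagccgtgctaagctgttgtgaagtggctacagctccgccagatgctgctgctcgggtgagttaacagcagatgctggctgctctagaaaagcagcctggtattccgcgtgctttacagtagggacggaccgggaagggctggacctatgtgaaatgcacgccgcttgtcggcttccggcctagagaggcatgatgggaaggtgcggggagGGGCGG

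The motifs searched on both strands were CCAAT, the box bound by NF-Y, GGGCGG, the GC box bound by Sp1 and its relatives, and TATAAA, a core element that binds TBP. None of the 3 overlaps another. CCAAT occurred 1 time in the AA388235 promoter, beginning 73 bases before the start, and was not found in the B3galt4 promoter. GGGCGG occurred 1 time in each, beginning 214 bases before the start of AA388235 and 6 bases before that of B3galt4. TATAAA was found in neither. Among 32851 mouse promoters of the same length, 33.8% held CCAAT, 32.7% held GGGCGG and 12.4% held TATAAA, so each match was one that about 1 in 3 promoters has. The AA388235 promoter had 8 CpG and 54.4% GC, and the B3galt4 promoter had 14 CpG and 59.2% GC, beside medians of 6 CpG and 52.4% GC over all promoters and an upper quartile of 16 CpG.

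AA388235 lies at 33981492 to 33985358 on the plus strand of chromosome 17 (GRCm38), a transcript of 3867 nt, and B3galt4 lies at 33949912 to 33951488 on the minus strand. The 2 genes are transcribed away from each other from starts 30.0 kb apart, and together they span 35.4 kb of the H2 region, the mouse major histocompatibility complex. Between them the RefSeq annotation places 4 genes, Rps18, which encodes a protein of the small ribosomal subunit, Vps52, which encodes a subunit of a vesicle tethering complex, the small nuclear RNA gene Gm23111, and the transcribed pseudogene H2-K2, which ends 2.7 kb before the start of AA388235. Beyond the other end of AA388235, at 10.7 kb, lies H2-K1, which encodes a class I histocompatibility antigen. None of the 4 genes between the pair was among the 1194 listed probes at hand, which lack 159 rows of the lncRNA list, and as only listed probes could be named here, their levels were not analysed.

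The level of AA388235 separated the strains by more than any difference among mice of one strain. On the log2 scale of the normalized signal it was 8.74, 8.74, 8.44 and 8.42 in C57BL/6 replicates 1 to 4. In DBA/1 replicates 1 to 4 it was 2.89, 2.32, 2.32 and 2.32, where 2.32 is the log2 of 5, the lowest intensity that was allowed. The 4 DBA/1 mice thus lay at or just above the floor, and a gap of 5.54 separated the highest of them from the lowest C57BL/6 mouse.

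The mean log2 signal of AA388235 was 8.59 ± 0.18 (SD, n = 4) in C57BL/6 mice and 2.46 ± 0.28 (SD, n = 4) in DBA/1 mice, a difference of -6.12 (standard error 0.19), DBA/1 minus C57BL/6. The probe was well above background on 4 of 4 C57BL/6 arrays and on 0 of 4 DBA/1 arrays, so the DBA/1 level has only an upper bound. The detection limit of an array was the highest value of any probe on it that was not well above background. With each DBA/1 array set to that limit, the AA388235 signal was lower in DBA/1 mice by at least 25.8-fold. The measured means differed 69.7-fold. When normexp with an offset of 50 was run on the median spot signal, and not on the processed signal, the difference was -2.85. The bound of 25.8-fold is -4.69 on this scale, so it does not extend to that setting.

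The level of B3galt4 was also lower in each DBA/1 mouse than in each C57BL/6 mouse. Its log2 signal was 6.77, 7.11, 7.37 and 7.45 in C57BL/6 replicates 1 to 4. It was 3.72, 5.09, 4.40 and 5.26 in DBA/1 replicates 1 to 4. The strains did not overlap, with a gap of 1.51 between the highest DBA/1 and the lowest C57BL/6 mouse, but the DBA/1 mice were far apart.

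The mean log2 signal of B3galt4 was 7.17 ± 0.31 (SD, n = 4) in C57BL/6 mice and 4.62 ± 0.71 (SD, n = 4) in DBA/1 mice, a difference of -2.56 (standard error 0.31) or 5.88-fold. The probe was well above background on 4 of 4 C57BL/6 and on 3 of 4 DBA/1 arrays, all but replicate 1, so B3galt4 RNA was still measured in most DBA/1 mice, unlike AA388235. In DBA/1 replicate 3, the value of 4.40 was close to the detection limit of that array, 4.42. With normexp on the median spot signal the difference was -1.26.

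**Figure D1:**
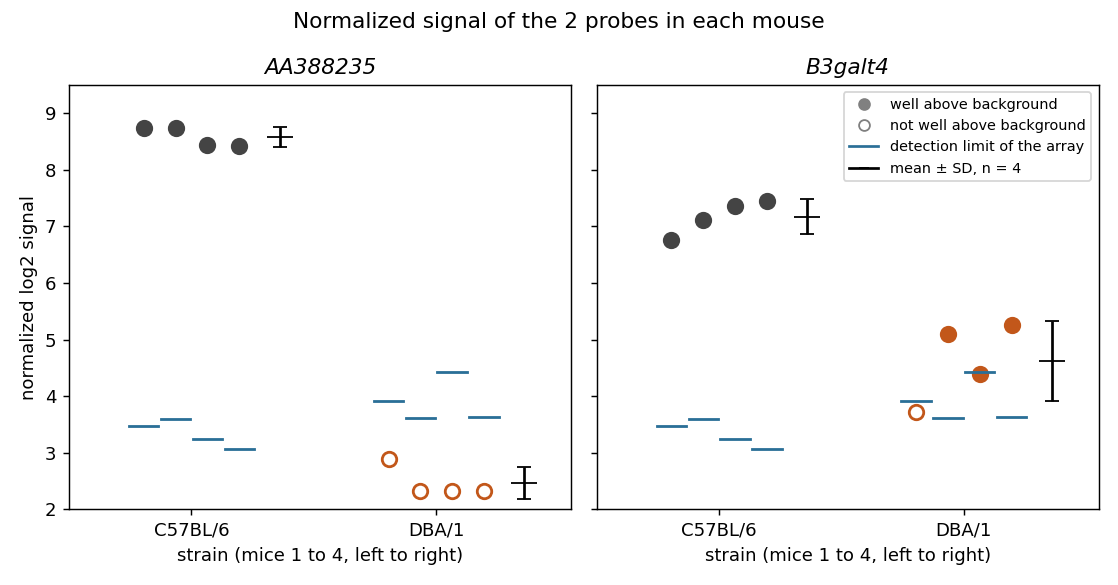
Normalized log2 signal (vertical axis) of the AA388235 probe (left) and the B3galt4 probe (right) in each of 4 C57BL/6 and 4 DBA/1 mice. Filled circles are spots well above background, open circles are not, the blue line is the detection limit of that array, and the bars are mean ± SD (n = 4). All 4 DBA/1 values of AA388235 lie under the line of their array, at 2.32 to 2.89, and the B3galt4 values of DBA/1 lie from 3.72 to 5.26, around and above the lines.

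Both probes met the criterion by which the study had picked its lists, as the choice of members required. Among all 33179 probes that could be tested, limma with a Benjamini-Hochberg adjusted p under 0.05 and a fold change of 2 or more called 3.83% as different between the strains and 2.94% as lower in DBA/1 mice. Of the 31872 probes with a value in every mouse, 7.24% had all 4 DBA/1 values below all 4 C57BL/6 values, as both members did. Over all of the tested probes, the median difference was -0.01, and 95% of the differences lay between -1.19 and 0.71.

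The spots themselves were dimmer in each DBA/1 mouse than in each C57BL/6 mouse before any normalization between arrays. The median pixel of the AA388235 spot was 445, 385, 421 and 603.5 intensity units in C57BL/6 replicates 1 to 4, over a local background of 13 to 15. In DBA/1 replicates 1 to 4 it was 32, 13, 21.5 and 17 over a local background of 13 to 14. In DBA/1 replicate 2 the spot and its surroundings were thus equally bright, and the software flagged the signal as positive and significant in replicates 1 and 3 alone.

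The median pixel of the B3galt4 spot was 144.5, 137, 204.5 and 329 in C57BL/6 replicates 1 to 4, over a local background of 13 to 14. In DBA/1 replicates 1 to 4 it was 36, 44, 33 and 69.5, over the same range of background. Each DBA/1 spot of B3galt4 therefore stood above its surroundings, by a factor of 2.54 in replicate 3 at the least and 5.35 in replicate 4 at the most. No spot of either probe was saturated or an outlier on any array.

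**Figure D2:**
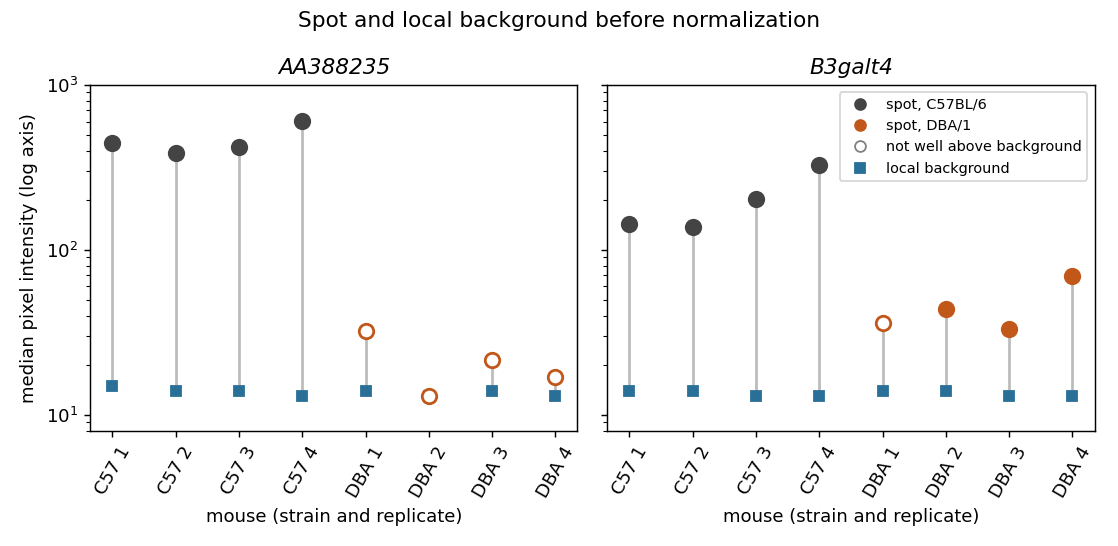
Median pixel intensity of the spot (circles) and of its local background (blue squares) for AA388235 (left) and B3galt4 (right) in each mouse, on a logarithmic axis. C57 and DBA stand for C57BL/6 and DBA/1, the numbers are the replicates, and open circles are spots not well above background. The AA388235 spot lies at 13 to 32 in DBA/1 mice against a background of 13 to 14, and at 385 or more in C57BL/6 mice.

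The arrays differed in overall brightness along with the strains. C57BL/6 arrays had a 75th percentile intensity of 67.4 to 109 and 33045 to 36162 probes well above background. For DBA/1 arrays these ranges were 46.9 to 74.7 and 29301 to 33350. The 8 arrays shared 1 slide and each of its rows carried a single strain, so slide row and strain cannot be told apart. Mice with the same replicate number shared a column of the slide, and B3galt4 was lowest in replicate 1 and highest in replicate 4 of both strains. The part of the column in this was not tested. Within the 4 columns, the difference of AA388235 was -6.42 to -5.85 and that of B3galt4 was -3.05 to -2.02. With each array scaled to its 75th percentile in place of quantile normalization, the difference of AA388235 was -5.83 and that of B3galt4 was -2.51. None of the 21 marker genes of neurons, glia, vessels and blood that were looked for was among the listed probes at hand, so the cell makeup of the tissue was not analysed here.

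Within C57BL/6, the mice did not come in the same order for the 2 RNAs. Among C57BL/6 mice, AA388235 lay above its strain mean by 0.15 in replicates 1 and 2 and below it in replicates 3 and 4, by -0.15 and -0.16. B3galt4 lay below its strain mean in replicates 1 and 2, by -0.41 and -0.06, and above it by 0.19 in replicate 3 and by 0.27 in replicate 4. The mice above the mean for one RNA were thus below it for the other after normalization, and 4 mice are too few to test such a relation. Before normalization replicate 4 had the highest intensity for both RNAs, 561.04 for AA388235 and 274.8 for B3galt4, and its array was the brightest of the 8.

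Among DBA/1 mice, replicate 1 had the highest AA388235 value, 0.42 above the strain mean, and the lowest B3galt4 value, at -0.90. Neither probe was well above background on that array, and both values lay under its detection limit of 3.91. They therefore show no measured relation of the 2 RNAs. The other DBA/1 mice were all at the floor for AA388235 and have no order there, while their B3galt4 values were 0.48, -0.22 and 0.64 from the strain mean. No correlation over the 8 mice is given, because the strains form separate clusters. When outlier spots elsewhere on the arrays were kept in the normalization, C57BL/6 replicates 3 and 4 changed places for AA388235, with 8.38 and 8.52, so the order of these 2 mice is not settled.

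**Figure D3:**
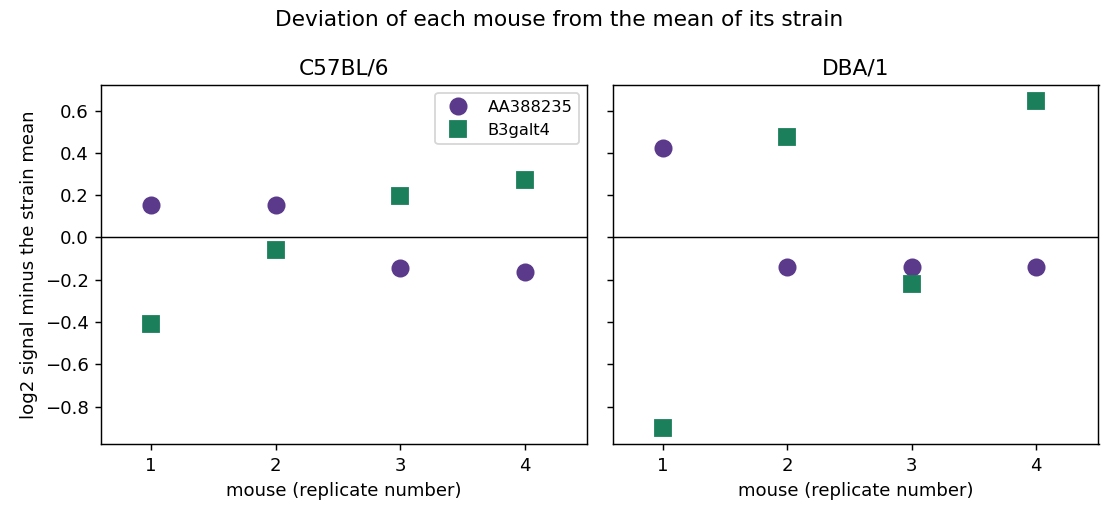
Log2 signal of AA388235 (circles) and B3galt4 (squares) in each mouse minus the mean of its strain, for C57BL/6 (left) and DBA/1 (right), against the replicate number. In C57BL/6 the circles are above 0 in replicates 1 and 2 and the squares in replicates 3 and 4. In DBA/1 replicate 1 holds the highest circle (0.42) and the lowest square (-0.90), neither of them well above background.

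AA388235 varied little among C57BL/6 mice, where the highest level was 1.25 times the lowest. Its SD there was 0.18, beside a median SD of 0.25 over the tested probes with a value in every mouse, and its SD in DBA/1 mice, 0.28, came from replicate 1 alone and was 0 without it, since the other 3 mice were at the floor. With no floor this SD was 1.11, and with 75th percentile scaling it was 0.49, so the spread of AA388235 in DBA/1 mice is not measured by these arrays. B3galt4 varied more, 1.60-fold among C57BL/6 mice and 2.92-fold among DBA/1 mice. Its SD of 0.71 in DBA/1 mice was above the 90th percentile of the same probes, 0.64, whereas its SD of 0.31 in C57BL/6 mice was below the corresponding 0.47.

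The SD of B3galt4 was 2.31 times as large in DBA/1 as in C57BL/6 mice. Of the same probes, 62.4% had the larger SD in DBA/1 mice, and the median SD was 0.31 there. Without replicate 1, the DBA/1 mouse in which the probe was not well above background, the SD of B3galt4 in DBA/1 mice was 0.47. Without C57BL/6 replicate 1, its SD in that strain was 0.17. With normexp on the median spot signal the SDs were 0.27 in DBA/1 and 0.24 in C57BL/6 mice, close to each other. The spread of B3galt4 in each strain thus depended on the mouse with the lowest value. Its spread in DBA/1 mice, and the ratio between the strains, also changed with normexp.

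The profiles of the pair over the 8 mice were compared by the root mean square difference of the log2 values, each profile centred on its own mean. The pair differed by 1.90. Among the other 1168 listed probes with a value in every mouse, B3galt4 was the 142nd most like AA388235, where the median was 2.44, and AA388235 was the 891st most like B3galt4, where the median was 0.88. By this measure the neighbour on the chromosome was not the nearest profile for either gene. The measure includes the strain difference by which the probes were picked, -6.12 for AA388235 and -2.56 for B3galt4. The ranks and nearest profiles thus largely follow the size of that difference and say little on covariation within a strain. The missing rows of the lncRNA list are at the end of its part for RNAs lower in DBA/1 mice, and ranks, nearest profiles and counts of listed probes hold for the 1194 probes at hand. The DBA/1 values of AA388235 are bounds, so the likeness to it depends on the floor as well.

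The 5 listed probes most like AA388235 were those of other RNAs well above background on all C57BL/6 arrays and on 0 of 4 DBA/1 arrays. They were 2 probes of the lncRNA 1500004A13Rik on chromosome 3 at 0.210 and 0.217, Tceanc2 on chromosome 4 at 0.247, the lncRNA AK047380 on chromosome 6 at 0.355, and Ier5, an immediate early response gene on chromosome 1, at 0.359. Their differences ran from -6.27 to -5.44. None of them is on chromosome 17.

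The 5 listed probes most like B3galt4 had differences from -2.82 to -2.00. They were the lncRNA A330076H08Rik on chromosome 7 at 0.257, Smim5, which encodes a small integral membrane protein, on chromosome 11 at 0.289, mouselincRNA0834 on chromosome 19 at 0.333, the lncRNA Gm10501 on chromosome 17 at 0.347, and the lncRNA AK138505 on chromosome 12 at 0.358. A330076H08Rik and mouselincRNA0834 were well above background on 0 of 4 DBA/1 arrays, so their DBA/1 values are bounds, and the other 3 were well above background on all 8 arrays.

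The listed probes at hand included 64 on chromosome 17, of which 5 besides AA388235 lay within 1000 kb of it. Among these B3galt4 was the nearest, and the next was H2-DMa at 137 kb. Besides B3galt4, 1 of these neighbours was lower in DBA/1 mice and 3 were higher, so listed probes of both directions stood near the pair. All were picked by the study for this same contrast.

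H2-DMa, which encodes a chain of the molecule that loads peptides onto class II antigens, was 2.15-fold brighter in DBA/1 mice (standard error of the log2 difference 0.23), with a log2 difference of 0.38 by normexp. Actl9, an actin-like gene at 547 kb on the side of B3galt4, measured 4.95 ± 0.25 (SD, n = 4) on the log2 scale in DBA/1 mice. In C57BL/6 mice Actl9 was at 3.09 ± 0.17 (SD, n = 4), with 1 of 4 arrays well above background, and the difference was 1.86, or 0.48 by normexp. Hspa1b, which encodes a heat-inducible 70 kDa chaperone, lies at 971 kb, and its log2 signal was 10.81 ± 0.30 (SD, n = 4) in DBA/1 mice against 8.30 ± 0.34 (SD, n = 4) in C57BL/6 mice. Hspa1b differed by 2.32 by normexp. These 3 genes were thus brighter in the strain in which AA388235 and B3galt4 were dimmer.

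Gm10501, at 992 kb, was the other neighbour with a lower signal in DBA/1 mice. Its log2 signal was 7.36 ± 0.18 (SD, n = 4) in C57BL/6 mice against 5.36 ± 0.42 (SD, n = 4) in DBA/1 mice, a difference of -2.00 (standard error 0.22), or -1.12 by normexp. The former lies nearer to the difference of B3galt4 than to that of AA388235, and it is the probe of the region that was also among those most like B3galt4.

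**Figure D4:**
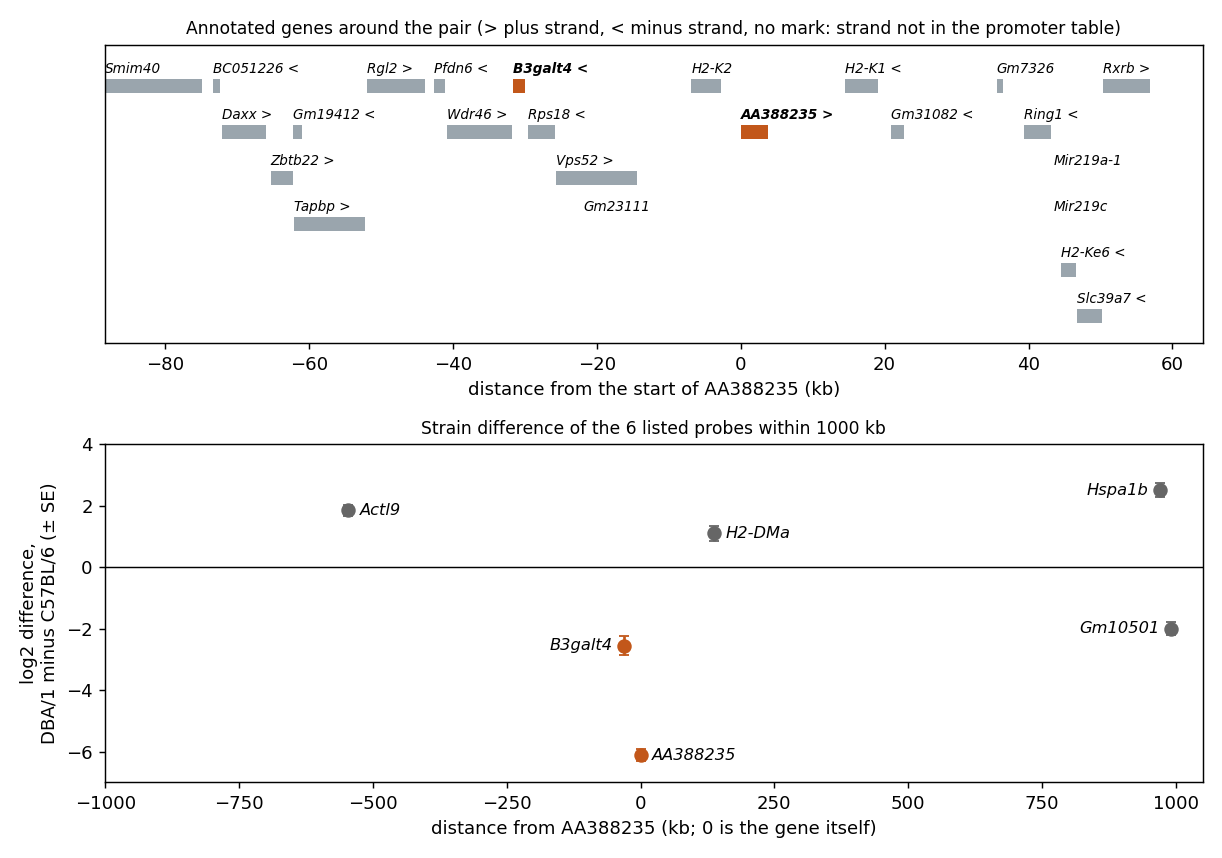
Top, annotated genes around AA388235 (RefSeq), drawn to scale against the distance in kb from its start, with the pair in orange and 4 genes between them. Bottom, log2 difference, DBA/1 minus C57BL/6, with its standard error, of the 6 listed probes within 1000 kb, against their distance from AA388235, with AA388235 at -6.12, B3galt4 at -2.56 and Gm10501 at -2.00 below 0 and the other 3 above.

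B3galt4 works in the pathway that lengthens gangliosides one sugar at a time. Of the 24 genes of ganglioside synthesis and breakdown that were looked for, 2 were listed, B3galt4, which is in the count by choice, and B4galnt1, and both were lower in DBA/1 mice. Over all probes that were normalized, of lncRNAs and coding transcripts together, 1.96% were listed. That is a share of probes and not of genes, and it lacks the missing rows of the lncRNA list. Most of the adjusted limma calls made here were in this direction, 976 of 1270. B4galnt1 encodes the enzyme of the step before, the N-acetylgalactosaminyltransferase that makes the GM2 and GD2 on which the B3galt4 product works. The levels of the other 22 genes were not analysed, since names were at hand only for listed probes.

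The log2 signal of B4galnt1 was 7.36, 7.72, 7.14 and 7.13 in C57BL/6 replicates 1 to 4 and 5.75, 6.17, 6.02 and 6.02 in DBA/1 replicates 1 to 4. The strains did not overlap, and the probe was well above background on all 8 arrays. The means were 7.34 ± 0.27 (SD, n = 4) and 5.99 ± 0.18 (SD, n = 4), a difference of -1.35 (standard error 0.19) or 2.54-fold, and -0.75 by normexp. The transcript listed for the probe lies at 127165831 to 127168523 on chromosome 10, within a gene at 127165156 to 127172340. The probe is listed as able to bind a second transcript. The study picked the probe for this contrast, so it is no independent sign of the direction.

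The B3galt4 product also belongs to the β-1,3-galactosyltransferases. Of the 8 genes of this family and its close relatives that were looked for, 2 were listed, beside the 1.96% of all probes, B3galt4 by choice and B3galt6, which encodes the enzyme that adds a galactose to the linker by which sugar chains are attached to proteoglycans. The log2 signal of B3galt6 was 4.08, 4.19, 4.10 and 4.48 in C57BL/6 replicates 1 to 4. It was at the floor of 2.32 in DBA/1 replicates 1 to 3 and at 3.79 in replicate 4, the one DBA/1 array on which it was well above background.

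The C57BL/6 mean of B3galt6 was 4.21 ± 0.18 (SD, n = 4), and its DBA/1 level was measured in 1 mouse. The fitted difference of -1.52 (standard error 0.31) is set by the floor in the other 3 DBA/1 mice. With these mice at the detection limit of their arrays the difference was -0.28, and by normexp it was -0.30. The limits of the DBA/1 arrays, 3.62 to 4.42, overlap the C57BL/6 values, so the strains are not separated for B3galt6.

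**Figure D5:**
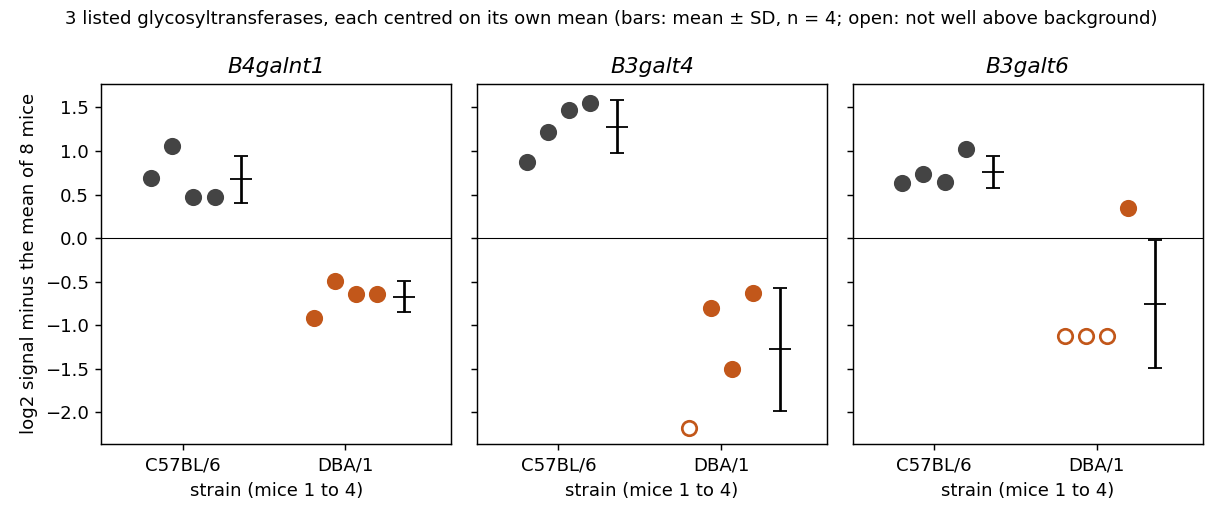
Log2 signal of B4galnt1 (left), B3galt4 (middle) and B3galt6 (right) in each mouse minus the gene's own mean over the 8 mice, for C57BL/6 and DBA/1 replicates 1 to 4 from left to right, with mean ± SD (n = 4). Open circles are spots not well above background. For B4galnt1 and B3galt4 all DBA/1 points lie below all C57BL/6 points, with differences of the means of -1.35 and -2.56, and for B3galt6 the 3 open DBA/1 points are at the floor, so their place shows no measured level.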

How the data were processed

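Cy3-labelled RNA from the brainstem of each mouse (n = 4 per strain) was hybridized to Arraystar mouse lncRNA V3.0 arrays. The authors deposited scanner files of Agilent Feature Extraction 11.0.1.1, with a background-subtracted intensity per spot, its error, median spot and local background intensities and detection flags, not normalized between arrays. The authors' table holds log2 values of 60804 probes, quantile-normalized. It differed from a quantile normalization of all spots made here by at most 0.0104 above the floor.

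Control and outlier spots (197 to 914 outliers per array) were left out, spots of a probe averaged, intensities below 5 set to 5, and arrays quantile-normalized on the log2 scale. Probes well above background on at least 4 of 8 arrays (33179) were fitted with limma 3.58.1 in R 4.3.3, checked on simulated data. Python 3.11.15 with pandas 2.3.3 and numpy 2.4.6 was used for the tables. The 8 samples are labelled as biological replicates of their strain, and the number of arrays limits the precision. Names, positions and probe sequences came from the study's lists (1194 probes, 761 of lncRNAs and 433 of mRNAs), of which the lncRNA list was used without 159 rows. Listed positions of both members equal those of the GRCm38.p6 gene table. The genes named were the pair, listed probes within 1000 kb, listed genes of the ganglioside and galactosyltransferase lists, and the 5 listed probes most like each member. These members and lists were chosen with earlier results of these data known. Alternatives were other normalizations, floors, filters, background corrections, limits, tests, the replicate number as a block and leaving out each mouse, and, after seeing the data, values under an array's detection limit set to it.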

Additional observations from a re-analysis of the deposited data

Results flagged for a closer look

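The groups screened were the 4 mice of each strain for the pair, the other listed probes within 1000 kb, B4galnt1 and B3galt6. In 4 of these 16 groups, 1 mouse stood far from the other 3. Its gap to the nearest value, divided by the range of the group, was above Dixon's critical value at the 95% level. Chance gives such a gap in about 1 in 20 groups, and the groups share the same 8 mice. AA388235 in DBA/1 mice had the ratio 1, because replicate 1 was at 2.89 and the other 3 were at the floor of 2.32. B3galt6 in DBA/1 mice likewise had the ratio 1, with replicate 4 at 3.79 and the others at 2.32. Hspa1b in C57BL/6 mice had the ratio 0.89, with 1 mouse at 8.80 and the others at 8.11 to 8.18. Actl9 in C57BL/6 mice had the ratio 0.83, with 1 mouse at 2.84 and the others at 3.15 to 3.22, values near the floor. Both groups of B3galt4 stayed below the critical value.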

How the results depend on the processing

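None of the values changed direction under the alternatives. The difference of AA388235 was -5.83 with 75th percentile scaling, -6.64 with no floor and -2.85 with normexp, and that of B3galt4 was -1.26 with normexp, which was run on the median spot signal with an offset of 50. Signal, background correction and offset changed together there, and the cause was not tested. With values under the detection limit of their array set to it, a setting chosen after seeing the data, AA388235 differed by -4.69, B3galt4 by -2.50, Actl9 by 1.58 and B3galt6 by -0.28. The root mean square difference of the pair was 2.33 with no floor and 0.847 with normexp. AA388235 was 43.1-fold lower when the limit of an array was the lowest value among its probes well above background. Probes not well above background can exceed that limit, so this fold is not a bound. The number of probes called, 1270, was 633 over probes well above background on all arrays, 329 with normexp and 567 at a fold change of 3. By the unadjusted p, 1449 were called, against 688, 381 and 576 in these settings and 3498 at a fold change of 1.5. The methods' t-test called 1365 by the unadjusted p and 888 after adjustment.

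Leaving out each mouse in turn gave differences of -6.29 to -6.05 for AA388235 and -2.76 to -2.27 for B3galt4, at least 23.9-fold to 29.2-fold lower for AA388235, a difference between the profiles of 1.74 to 2.03, 1113 to 1415 called probes, and 2 lower neighbours each time. The replicate number, which is also the slide column, as a block left both differences at -6.12 and -2.56 and called 1325 probes. With the block the standard errors were 0.15 for AA388235 and 0.21 for B3galt4, against 0.19 and 0.31 without it. Same-numbered mice had correlations of deviations of 0.38, 0.02, 0.13 and 0.35. C57BL/6 replicates 1, 3 and 4 correlated best with the DBA/1 mouse of the same number, and replicate 2 with DBA/1 replicate 3. With 1 of the 4 correlations under 0.1, the numbers were not taken to pair the mice. Neither member could be tested over probes well above background on all arrays. Signal over background limits AA388235 in DBA/1 mice to a bound.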
